A study of Rattus norvegicus with 16 samples.

Results

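The genes described are 6 regulators of fuel use and of mitochondrial biogenesis in the heart: Ppara (ENSRNOG00000021463.2), Ppard (ENSRNOG00000000503.7), Ppargc1a (ENSRNOG00000004473.6), Esrra (ENSRNOG00000021139.5), Rxra (ENSRNOG00000009446.4) and Tfam (ENSRNOG00000000613.6). They were chosen by Ensembl identifier out of the 23918 genes in the count files, with the symbols assigned to those identifiers when the set was chosen, and the rule itself uses no measured value. All 6 were among the 14175 genes that passed the filter on low counts. Heart RNA came from 16 male Wistar rats: 4 controls given no agent, 6 rats injected once in the tail vein with streptozotocin at 55 mg/kg, called D55, and 6 at 100 mg/kg, called D100. The drug kills pancreatic beta cells, which leaves rodents short of insulin. The treated rats weighed 240 to 260 g, were under halothane when injected, and were accepted as diabetic when blood glucose passed 13 mmol/L at 24 hours, per the labels. Exsanguinated hearts were taken on day 4. Blood glucose of single animals and any vehicle injection of the controls were not given in the sources used here. The title of the study ties the severity of diabetes to cardiac gene expression, so the comparisons were D100 against control, D55 against control and D100 against D55.

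Ppara and Ppard encode nuclear receptors that bind fatty acids and turn on genes for their uptake and oxidation, each as a heterodimer with a retinoid X receptor such as the product of Rxra. Ppargc1a encodes a coactivator that docks on these receptors and on the estrogen-related receptor encoded by Esrra, which drives genes of oxidative phosphorylation and of the citric acid cycle. Tfam encodes the protein that packages mitochondrial DNA and starts its transcription, and its gene is a known target of the nuclear respiratory factors. The diabetic heart is known for leaning on fatty acids as its fuel, which makes this circuit a usual place to look.

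The libraries held 26.2 to 48.3 M (mega, as in Mb) estimated counts in controls, 18.5 to 48.4 in D55 and 4.69 to 25.6 in D100. D100 libraries were shallower than controls (exact two-sided permutation p = 0.00952, adjusted p over 3 comparisons = 0.0286). The 10 most abundant genes took 43.3 to 59.4% of the counts in controls and 53.4 to 69.0% in D100. In D55 they took 30.1% and 30.4% in replicates B and E, which stand apart from the rest of the series, and 42.8 to 54.7% in the other 4 libraries. D55 levels and comparisons that rest on these libraries are therefore also given without them. Levels are given as CPM, a gene's counts per M counts of the library, with totals scaled by the trimmed mean of M values (TMM). They are not divided by transcript length, so levels are compared between samples and not between genes. The files do not pair identifiers with gene names, so the labelled tissue could not be checked against cardiac markers, nor could target genes of these receptors be named.

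**Figure D1:**
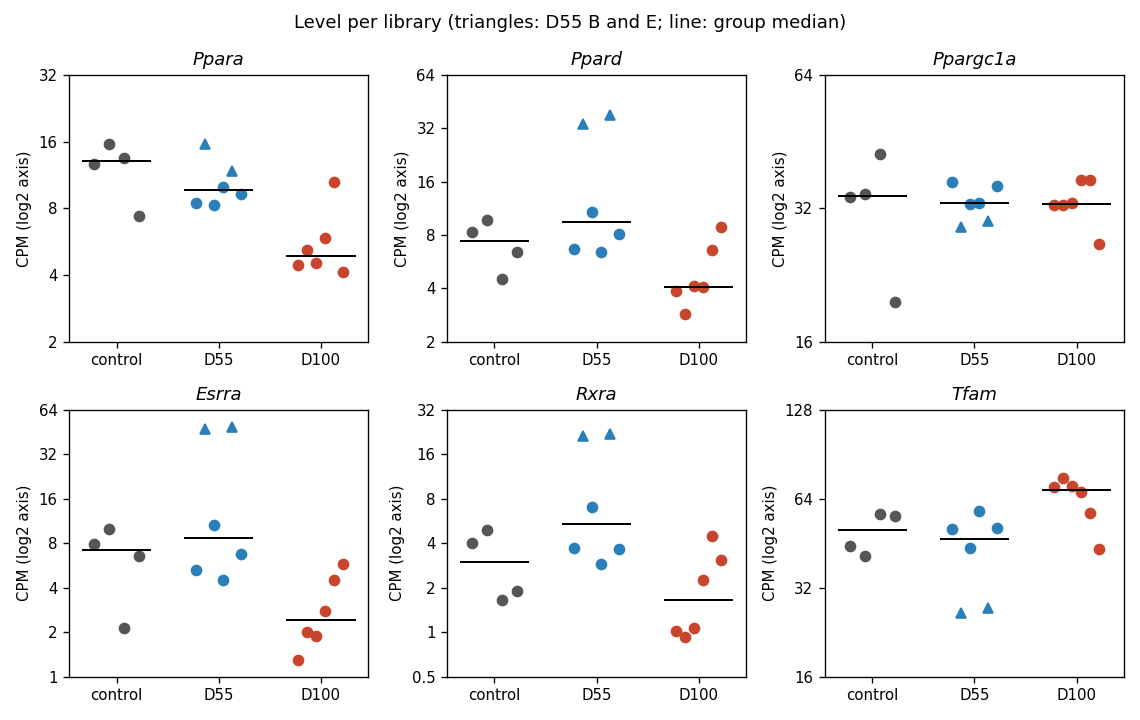
CPM (vertical log2 axis) of each gene in each of the 16 libraries, by group, with the group median as a line and D55 B and E as triangles. Ppara is lowest in D100, the triangles lie at the top for Ppard, Esrra and Rxra and at the bottom for Tfam, and Ppargc1a has the same median level in D55 and D100.

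Ppara, the main fatty acid receptor of the heart, was lower at the higher dose. Its level in the controls was 12.7, 15.7, 13.4 and 7.37 CPM in replicates 1 to 4. In D55 it ran from 8.26 CPM through a median of 9.63 to 15.5, and in D100 from 4.13 through 4.86 to 10.5. In D100, 5 of 6 libraries lay below the lowest control and below the lowest D55 library, and D100 E was the exception. The control mean was 12.3 ± 3.51 CPM (SD, n = 4), the D55 mean 10.6 ± 2.75 (SD, n = 6) and the D100 mean 5.78 ± 2.40 (SD, n = 6). The other 4 D55 libraries had a mean of 8.999 ± 0.776 CPM (SD, n = 4) with a highest value of 9.94. Ppara fell 2.10-fold in D100 against control, or by -1.07 ± 0.28 on the log2 scale (SE), with an edgeR adjusted p of 0.039. It was also lower in D100 than in D55, by -0.85 on the log2 scale (SE 0.25, edgeR adjusted p = 0.0237). Against control, D55 had a log2 difference of -0.22 with a 95% interval of -0.80 to 0.37 (edgeR adjusted p = 0.77), smaller than the spread between replicates, and -0.45 without D55 B and E, with an interval of -1.05 to 0.15. All 16 estimated counts of Ppara were whole within 0.01, as when no read is divided between genes. In bulk heart RNA, fewer cells of a type and less RNA per cell cannot be told apart.

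The fall of Ppara against control sat close to the threshold. Without the libraries D55 B and E it was -1.06 (edgeR adjusted p = 0.0197), and without D100 E it was -1.34 (adjusted p = 0.00554). The adjusted p passed 0.05 when control 1, 2 or 3 was left out, or D100 A, B, C, D or F, with values of 0.0592 to 0.163 and log2 fold changes of -0.93 to -1.07. Without a filter on low counts it was -1.08 (edgeR adjusted p = 0.0526). DESeq2 gave -1.04 (adjusted p = 0.00914), where 10.1% of all genes were called. Limma-voom with sample quality weights gave -1.31 (adjusted p = 2.18e-05), but it called 67.7% of all genes. Between the doses, Ppara was at -0.61 without D55 B and E (SE 0.26, edgeR adjusted p = 0.194), and the call was also lost when D55 B or E or D100 A, B or C alone was left out, with adjusted p-values of 0.0547 to 0.0681.

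Promoters of 5 of the 6 genes were found by symbol in the RefSeq table for the GRCr8 assembly, each 250 bases before to 50 bases after the start. Those of Ppara, Tfam and Esrra are shown because the first 2 genes were called in opposite directions between the doses and each holds a motif match, in capitals, while Esrra varied most among the 6. They lie on GRCr8 at chr7:118712357-118712656 (plus strand), chr20:17355123-17355422 (plus strand) and chr1:213543256-213543555 (minus strand).
Ppara: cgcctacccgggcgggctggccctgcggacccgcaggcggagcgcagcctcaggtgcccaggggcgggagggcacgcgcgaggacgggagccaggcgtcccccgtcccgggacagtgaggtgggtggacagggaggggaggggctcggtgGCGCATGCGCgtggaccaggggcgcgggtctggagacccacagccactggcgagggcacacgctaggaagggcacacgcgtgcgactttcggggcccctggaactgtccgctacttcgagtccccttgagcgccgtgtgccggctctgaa
Tfam: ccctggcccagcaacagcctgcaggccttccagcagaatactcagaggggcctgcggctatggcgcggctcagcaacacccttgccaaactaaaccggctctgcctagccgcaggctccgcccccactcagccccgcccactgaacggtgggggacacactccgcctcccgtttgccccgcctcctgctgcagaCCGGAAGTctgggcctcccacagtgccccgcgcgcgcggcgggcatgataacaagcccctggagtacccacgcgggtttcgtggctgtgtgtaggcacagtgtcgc
Esrra: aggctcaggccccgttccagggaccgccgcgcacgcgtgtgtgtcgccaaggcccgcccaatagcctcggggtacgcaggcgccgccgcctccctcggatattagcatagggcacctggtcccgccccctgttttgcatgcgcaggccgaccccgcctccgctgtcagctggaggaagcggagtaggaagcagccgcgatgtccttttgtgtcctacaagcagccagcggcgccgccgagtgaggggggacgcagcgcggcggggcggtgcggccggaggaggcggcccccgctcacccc
The motifs searched on both strands were the nuclear receptor hexamer AGGTCA, the ERR element TCAAGGTCA that contains it, the PPAR and RXR element DR1 (2 copies of it with 1 base between them), the nuclear respiratory factor motif NRF1 and the ETS motif CCGGAAGT that GABPA binds. The Ppara window held the NRF1 motif, the letters in capitals there, which starts 100 bases before the gene's start, a motif in 0.852% of 33469 promoters. The Tfam window held CCGGAAGT, which starts 56 bases before the start, a motif in 3.81% of promoters. The windows of Esrra, Rxra and Ppargc1a held 0 of the 5 motifs, and AGGTCA was in 16.2%, TCAAGGTCA in 0.433% and DR1 in 0.0538% of all promoters. G and C made up 84.7% of the Rxra window, 73.7% of that of Ppara, 72.0% of that of Esrra, 67.7% of that of Tfam and 50.3% of that of Ppargc1a. The counts themselves rest on the Rnor_6.0 assembly, and a match is a description of the letters, not a site in use.

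Ppard, the receptor isotype expressed in most tissues, followed another course. The controls held 8.28, 9.78, 4.51 and 6.44 CPM. D55 B and E held 33.8 and 37.8 CPM, while the other 4 D55 libraries held 6.44 to 10.8. D100 ran from 2.86 CPM through a median of 4.09 to 8.88. Only D55 B and E exceeded all other libraries, and without them the D55 mean was 8.03 CPM ± 2.01 (SD, n = 4), beside a control mean of 7.25 ± 2.28 (SD, n = 4) and a D100 mean of 5.07 ± 2.24 (SD, n = 6). Ppard was lower in D100 than in D55 by -1.80 on the log2 scale (SE 0.47, edgeR adjusted p = 0.0173), and without D55 B and E by -0.70 (SE 0.30, adjusted p = 0.195). Against control the D100 difference was -0.55 (SE 0.51, edgeR adjusted p = 0.506). None of its 16 estimates was whole within 0.01 (0 of 16), so kallisto divided some of its reads with other transcripts and its level is less certain.

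Esrra, the estrogen-related receptor, varied most of the 6 genes, and 95.8% of all tested genes had a smaller SD of log2 CPM over the 16 libraries. The controls held 7.84, 10.02, 2.11 and 6.50 CPM. D55 B and E held 47.5 and 48.9 CPM, and the other D55 libraries 4.51 to 10.5. In D100 the level ran from 1.29 CPM through a median of 2.40 to 5.78. Controls and D100 overlapped through control 3, which at 2.11 CPM lay below 3 of the D100 libraries. Esrra was 7.01-fold lower in D100 than in D55, or by -2.81 ± 0.66 on the log2 scale (SE), with an edgeR adjusted p of 0.0156. That value was -1.21 without D55 B and E (SE 0.43, adjusted p = 0.155). Against control the D100 value was -1.17 with a 95% interval of -2.63 to 0.28 (edgeR adjusted p = 0.305). That interval spans 0, so the direction is not settled by these libraries. D100 A held 19 reads of Esrra, with a counting interval of 0.777 to 2.02 CPM, and D100 F held 28, with 3.84 to 8.35 CPM, so the spread within D100 was larger than counting error.

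Rxra, the dimer partner of the PPARs, had the lowest counts of the set in all libraries but D55 B and E, where Ppara had fewer. The controls held 4.01, 4.92, 1.66 and 1.90 CPM. D55 B and E held 21.2 and 21.9 CPM, and the other D55 libraries 2.89 to 6.98. D100 ran from 0.928 CPM through a median of 1.65 to 4.45. The lowest D100 value came from 12 reads, with a 95% counting interval of 0.479 to 1.62 CPM. Rxra was lower in D100 than in D55 by -2.25 on the log2 scale (SE 0.59, edgeR adjusted p = 0.0176), and by -1.02 without D55 B and E (SE 0.46, adjusted p = 0.213). The call was also lost without D55 B alone (-1.87, adjusted p = 0.051). Against control the D100 difference was -0.56 (SE 0.63, edgeR adjusted p = 0.587).

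Ppargc1a, the coactivator, held its level across the groups. The controls held 33.9, 34.4, 42.5 and 19.6 CPM, with replicate 4 the lowest of the series. D55 ran from 29.0 CPM through a median of 32.8 to 36.7, and D100 from 26.6 through 32.8 to 37.1. D55 B and E, so far apart for the receptors, held 29.0 and 30.0 CPM, close to the other D55 libraries at 32.8 to 36.7. The control mean was 32.6 ± 9.51 CPM (SD, n = 4), the D55 mean 32.9 ± 3.07 (SD, n = 6) and the D100 mean 33.1 ± 3.85 (SD, n = 6). Only 4.18% of all tested genes had a smaller SD of log2 CPM within D55, and 8.18% within D100, but 76.2% did within the controls. The D100 difference from control was 0.03 on the log2 scale with a 95% interval of -0.34 to 0.39 (edgeR adjusted p = 0.933). The D55 difference was 0.01, with an interval of -0.35 to 0.37 (edgeR adjusted p = 0.983). Between the doses it was 0.01 with an interval of -0.31 to 0.34 (edgeR adjusted p = 0.946). These intervals leave out a change of 1.5-fold in either direction. The level rests on the scaling: on unscaled library totals Ppargc1a was lower in D100 than in D55 by -0.60 (adjusted p = 0.0199), while the median of all genes stood at -0.65. None of its 16 estimates was whole (0 of 16), so its level too includes divided reads.

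On scaled CPM Tfam, the mitochondrial transcription factor, ran opposite to the receptors. The controls held 44.2, 40.8, 56.9 and 56.0 CPM. D55 B and E were the lowest of the series, at 26.2 and 27.4 CPM, and the other D55 libraries held 43.4 to 57.9. D100 ran from 43.3 CPM through a median of 68.6 to 75.2, and 5 of its 6 libraries lay above all controls. That separation rested on the scaling: on unscaled totals D100 held 42.4 to 57.1 CPM and the controls 47.2 to 57.3. The unscaled log2 difference from control was -0.093 (edgeR adjusted p = 0.616). The control mean of Tfam was 49.5 ± 8.18 CPM (SD, n = 4), the D55 mean 42.7 ± 13.1 (SD, n = 6) and the D100 mean 63.9 ± 11.7 (SD, n = 6). D100 exceeded D55 by 0.58 on the log2 scale (SE 0.20, edgeR adjusted p = 0.0366). Without D55 B and E this was 0.34 (SE 0.16, adjusted p = 0.221), and on unscaled totals it was -0.01 (adjusted p = 0.937). The call was also lost when D55 B, C or E or D100 A, B, C or D was left out, with adjusted p-values of 0.0581 to 0.0935, and when D55 and D100 were fitted without the controls (0.58, adjusted p = 0.0586). Against control the D100 difference was 0.37 with a 95% interval of -0.11 to 0.85 (edgeR adjusted p = 0.323).

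Set beside all genes, D100 against control called 1 of the 6, Ppara, while 4.38% of the 14175 genes tested passed an adjusted p of 0.05 (2.46% lower and 1.92% higher in D100). Without D55 B and E, 1 of the 6 passed, again Ppara, against 10.8% of genes. In limma-voom 5 of the 6 passed, against 67.7% of all genes, so this count says little of the set. Ppara stood low among all changes, with 6.10% of genes at a lower log2 fold change in D100 against control.

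In D55 against control edgeR called 0 of the 6, against 0.0635% of all genes (0.0564% higher and 0.00705% lower in D55), and DESeq2 and limma-voom also called 0, against 0.621% and 3.68% of all genes. At an unadjusted p under 0.05 edgeR had 3 of the 6, the genes Ppard, Esrra and Rxra, with log2 fold changes of 1.25, 1.63 and 1.69 and an adjusted p of 0.554 for each, and 8.97% of all genes passed that unadjusted level. These values rested on D55 B and E. Without those libraries they were 0.14, 0.03 and 0.46, and 0 of the 6 passed an unadjusted p of 0.05 in edgeR, near the 3.25% of all genes that did. At the adjusted level 0 of the 6 and 0.101% of all genes were called. When the share held by the top 10 genes was fitted too, 0 of the 6 were called as well, against 0.402% of all genes.

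Between the doses, 5 of the 6 genes were called: Ppara, Ppard, Esrra and Rxra were lower and Tfam was higher in D100 (on unscaled totals Tfam was at -0.01), against 35.6% of all genes (21.8% lower and 13.7% higher). Every one of these calls was lost without D55 B and E, where 0 of the 6 and 0.888% of all genes passed. All 5 kept their direction and an unadjusted p under 0.05, from 0.0137 for Esrra to 0.0482 for Tfam, a level that 22.3% of all genes passed in that fit. In no comparison were the groups free of overlap for any of the 6 genes, against 7.57% of genes free of overlap in D100 against control, 2.55% in D55 against control and 4.2% in D100 against D55. The comparisons with control share the 4 control libraries.

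**Figure D2:**
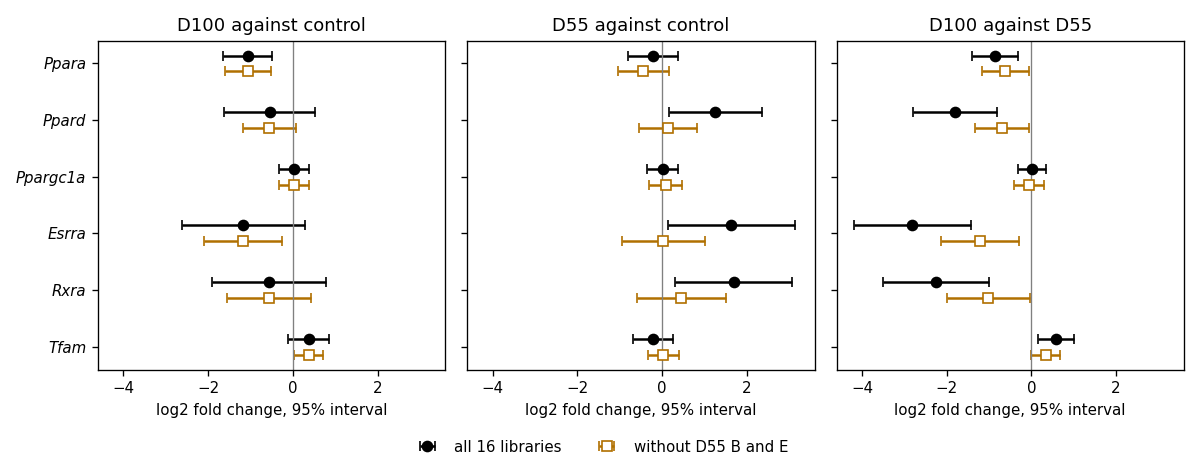
Log2 fold change of each gene (horizontal axis) with its 95% interval in the 3 comparisons, from all 16 libraries (filled circles) and without D55 B and E (open squares). Ppara in D100 against control moves from -1.07 to -1.06, while Esrra in D100 against D55 moves from -2.81 to -1.21.

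The share of a library held by its 10 top genes moved with 5 of the 6 regulators. This relation was not measured gene by gene outside the 6. Patterns like it were common, however: 1837 genes had r of 0.9 or more with Esrra and 1478 had -0.9 or less. With the share as a covariate, the genes called between the doses went from 35.6% to 0.268% of all genes. The count of 5 is therefore not read as a trait of these regulators. Over the 16 libraries, Pearson's r between this share and log2 CPM was -0.967 for Esrra, -0.963 for Ppard and -0.954 for Rxra, each at the lower limit of 100000 permutations (p = 1e-05; 1.5e-05 after adjustment over the 6 genes). For Tfam r was 0.968 with the same permutation p. Spearman's rho was -0.959, -0.941, -0.909 and 0.938 for Esrra, Ppard, Rxra and Tfam (permutation p of 2e-05 for Tfam and 1e-05 for the others, adjusted 2e-05 to 3e-05). Without D55 B and E, the libraries farthest from the median share, r was -0.928 for Esrra, -0.942 for Ppard, -0.894 for Rxra and 0.929 for Tfam. Ppara followed the share less closely, with r = -0.683 (permutation p = 0.00336, adjusted 0.00403) and rho = -0.606 (permutation p = 0.0153, adjusted 0.0184). Without D55 B and E it had r = -0.621. On unscaled CPM over the 16 libraries Ppara followed the share more closely, with r = -0.858 (permutation p = 3e-05, adjusted 4.5e-05) and rho = -0.812 (permutation p = 0.00025, adjusted 0.0003). The relation of Tfam rested on the scaling: on unscaled CPM its r was 0.241 (permutation p = 0.37), while those of Ppard, Esrra and Rxra were -0.984, -0.982 and -0.972 (permutation p = 1e-05 each). Ppargc1a did not follow it detectably, with r = 0.233 (permutation p = 0.386) and rho = 0.235 (permutation p = 0.379); r was 0.108 without D55 B and E. That too rested on the scaling, since on unscaled CPM its r was -0.773 (permutation p = 0.00036, adjusted 0.000432). Within D55 its r was 0.861 (n = 6, exact permutation p = 0.0528, adjusted 0.0633), and 0.309 over the 4 libraries without B and E.

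The relation was also present within the dose groups for most of these genes. Within D55 r was -0.977 for Ppard, -0.984 for Esrra, -0.997 for Rxra and 0.989 for Tfam (n = 6, exact permutation p = 0.00833, 0.00833, 0.00278 and 0.00139, adjusted p of 0.0125 or less). Spearman's coefficient was -0.886, -0.886, -0.943 and 1 in the same order (exact permutation p = 0.0333, 0.0333, 0.0167 and 0.00278). Without D55 B and E, over 4 libraries, r was -0.868, -0.893, -0.987 and 0.948. Within D100 r was -0.972 for Ppard, -0.908 for Rxra and 0.895 for Tfam (n = 6, exact permutation p = 0.00556, 0.00556 and 0.00139, adjusted p of 0.0111 or less). Spearman's rho within D100 was -0.829 for Ppard, -0.886 for Rxra and 1 for Tfam (exact permutation p = 0.0583, 0.0333 and 0.00278), and r without D100 E and F was -0.952, -0.696 and 0.990. For Esrra within D100 r was -0.833 (n = 6, exact permutation p = 0.0444, adjusted 0.0667), and r was -0.146 without D100 E and F, so it rested on those libraries. For Ppara within D100 r was -0.336 (exact permutation p = 0.556), and within D55 -0.744 (exact permutation p = 0.0944). Over the 4 D55 libraries without B and E the r of Ppara was 0.853, so the negative value rested on B and E. With the share added to the fit as a covariate, 0 of the 6 genes passed between the doses in edgeR, against 0.268% of all genes. At an unadjusted p under 0.05 there were also 0 of the 6, against 12.6% of all genes. In that fit the D100 difference from control was -0.77 for Ppara (adjusted p = 0.0659), and Rxra turned to 0.77 higher in D100 (adjusted p = 0.0365), against 9.8% of all genes called. The share itself differed between the doses by 17.2 percentage points (exact two-sided permutation p = 0.00649, adjusted 0.0195), and whether it is part of the response to the dose was not tested.

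**Figure D3:**
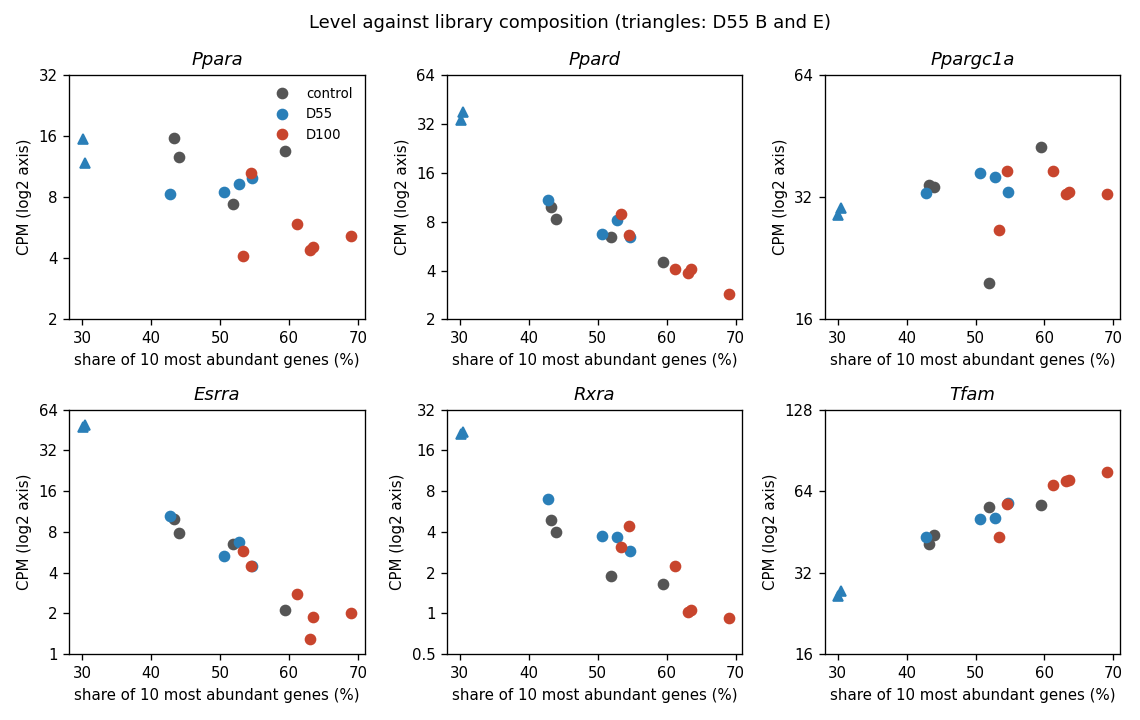
CPM (log2 axis) of each gene against the percentage of a library's counts in the 10 most abundant genes, with controls in grey, D55 in blue, D100 in red and D55 B and E as triangles. Over the 16 libraries Ppard, Esrra and Rxra fall and Tfam rises along the axis. Within D100 the fall of Esrra rests on D100 E and F. Ppara falls less closely (r = -0.683) and Ppargc1a has no detectable trend (r = 0.233). On unscaled CPM r with the share is 0.241 for Tfam, -0.858 for Ppara and -0.773 for Ppargc1a.

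Ratios of 2 genes within a library do not depend on library scaling, and 4 such ratios were compared over 3 comparisons. The log2 ratio of Ppargc1a to its partner receptor Esrra averaged 2.45 ± 1.26 over the controls (SD, n = 4), 1.38 ± 1.67 over D55 (SD, n = 6) and 3.61 ± 0.871 over D100 (SD, n = 6). Between the doses it differed by 2.23 (exact two-sided permutation p = 0.013, adjusted over 12 tests 0.0779), and without D55 B and E by 1.19 (exact permutation p = 0.0571, adjusted 0.343). The log2 ratio of Tfam to Ppargc1a averaged 0.93 ± 0.238 over D100 (SD, n = 6) and 0.32 ± 0.381 over D55 (SD, n = 6). This difference of 0.61 had an exact two-sided permutation p of 0.00649 (adjusted 0.0779), and without D55 B and E it was 0.39 (exact permutation p = 0.0286, adjusted 0.343). The log2 ratio of Ppara to its dimer partner Rxra averaged 2.07 ± 0.638 over the controls (SD, n = 4) and 0.53 ± 1.07 over D55 (SD, n = 6), a difference of -1.53 (exact permutation p = 0.0286, adjusted 0.114). It was -0.93 without D55 B and E (exact permutation p = 0.0857, adjusted 0.343). The log2 ratio of Ppara to Ppard averaged 0.76 ± 0.579 over the controls (SD, n = 4), -0.34 ± 0.905 over D55 (SD, n = 6) and 0.22 ± 0.693 over D100 (SD, n = 6), with exact permutation p-values of 0.0667 to 0.255. None of the 12 ratio tests passed an adjusted p of 0.05, and 3 of them had an unadjusted p under 0.05, of which 1 did without D55 B and E.

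**Figure D4:**
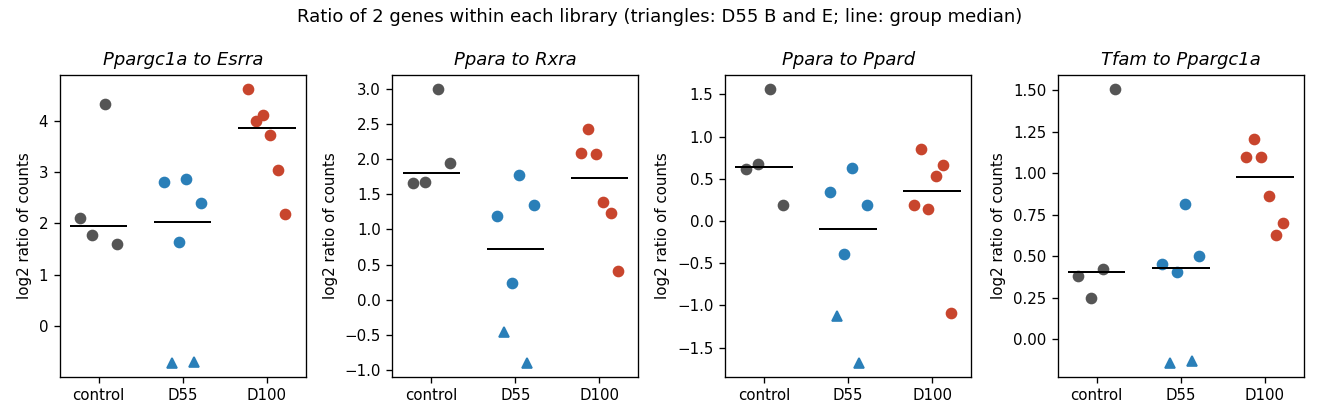
Log2 ratio of the counts of 2 genes in each library (vertical axis), by group, with the group median as a line and D55 B and E as triangles. For Ppargc1a to Esrra, D55 B and E lie at -0.71 and -0.70, and the D100 libraries between 2.18 and 4.62.

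The genes also differed in how much of the transcriptome shared their pattern. Over the 16 libraries, Esrra and Ppard had a Pearson r of 0.974, Ppard and Rxra 0.962, and Esrra and Rxra 0.959, on log2 CPM. Tfam had r of -0.977 with Ppard, -0.959 with Esrra and -0.944 with Rxra. Such values were common in these libraries, which share the composition described above: 1837 genes reached r of 0.9 with Esrra, 1762 with Ppard, 1735 with Rxra and 1381 with Tfam. The numbers were 790, 1089, 544 and 502 genes over the 14 libraries without D55 B and E. An r of -0.9 or less was reached by 1478 genes with Esrra, 1425 with Ppard, 1336 with Rxra and 1661 with Tfam over the 16 libraries. Ppard ranked 92 among all tested genes in likeness to Esrra and Rxra ranked 403, or 296 and 926 without D55 B and E, where r of Esrra with Rxra was 0.893. In contrast, 5 genes reached r of 0.9 with Ppara and 2 with Ppargc1a. Ppara and Rxra, which encode dimer partners, had r of 0.656, and Rxra was 2132nd in likeness to Ppara. Ppargc1a and Esrra, the coactivator and its receptor, had r of -0.312. All these values are on TMM-scaled CPM, and likeness was not computed on unscaled CPM. On unscaled CPM the r with the top-10 share was -0.773 for Ppargc1a, -0.982 for Esrra and 0.241 for Tfam. The negative values of Ppargc1a with Esrra and of Tfam with the receptors are therefore given for the scaled levels only.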

How the data were processed

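Polyadenylated RNA from heart was sequenced from stranded libraries made with 400 ng of total RNA, per the labels' protocols. Each deposited file lists estimated counts by gene, made with kallisto 0.43.1 on Rnor_6.0, per the submitters' processing notes. No annotation release, strand setting or read filter is stated in the sources used here. The 4 controls and 6 animals per dose are separate rats, and the labels name no batch.

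Estimated counts were rounded. Genes passing edgeR's filterByExpr were fitted in edgeR 4.0.16 (R 4.3.3) by quasi-likelihood with TMM scaling over all 16 libraries, and p-values were adjusted by Benjamini-Hochberg over 14175 genes (threshold 0.05). SE is the log2 fold change over the root of F. Log2 CPM for SDs and likeness used a prior count of 2, and ratios had 0.5 added to each count. Counting intervals are exact Poisson at 95% and cover counting error only; 3 counts correspond to 0.062 to 0.64 CPM. Permutation tests used scipy 1.17.1. Replicates of a group differed beyond counting noise (lowest chi-square per degree of freedom 12.0). The fit was checked on simulated counts with each gene drawn independently. They held no shift in composition shared between genes, so the check does not cover libraries such as D55 B and E. Alternatives used DESeq2 1.42.0, limma 3.58.1 and sva 3.50.0. Limma-voom was run with sample quality weights throughout, which let libraries count unequally.

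The genes and tests were chosen with earlier results of these data known. The rule for naming genes was to describe the 6 genes in every group; lists of partners, targets and cell type markers set by symbol could not be used, since 0 of the 23918 identifiers matched the 47357 rows of the RefSeq table, and the genes most like each member go unnamed for the same reason.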

Additional observations from a re-analysis of the deposited data

Results flagged for a closer look

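In 30 groups of values (6 genes and 4 ratios in 3 groups each), 3 libraries lay farther from the rest of their group than Dixon's test at 95% allows, where chance alone flags about 1 group in 20. Ppara stood at 10.5 CPM in D100 E, and its gap to the next D100 library was 0.723 of the group's range. The log2 ratio of Ppara to Ppard was -1.09 in D100 F, the shallowest library, which held 20 counts of Ppara and 43 of Ppard. The log2 ratio of Tfam to Ppargc1a was 1.51 in control 4, the control with the lowest Ppargc1a level. D55 B and E were not flagged for any gene. For Ppard, Esrra, Rxra and Tfam both stand apart but lie close to each other, which leaves no gap for the test to flag.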

How the results depend on the processing

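In D100 against control 1 of the 6 genes was called with all libraries, against 4.38% of all genes. The number was 0 without a filter (2.07% of all genes) and 5 in limma-voom (67.7%). It was 3 without D55 B, D55 E and D100 F (Ppara, Esrra and Tfam, against 19.8% of all genes). Leaving out 1 library gave 0 to 1, against 1.25 to 7.68% of all genes. In D100 against D55 the number was 5, against 35.6% of all genes. It was 0 without D55 B and E (0.888% of all genes), 0 without these and D100 F (2.48%) and 0 after adding the top-10 share as covariate (0.268%). With the replicate letter as a block it was 0, as for all genes (0%). At an unadjusted p under 0.05 in edgeR 5 passed with the block, as did 44.5% of all genes. Leaving out 1 library gave 2 to 5, against 8.37 to 47.6% of all genes. In D55 against control it was 0 under every alternative, against 0 to 3.68% of all genes. Libraries of the same letter had correlations of deviations from -0.50 to 0.63. The labels do not say whether a letter marks anything shared, and these values cannot settle it. With the block, Ppara was at -0.91 and Esrra at -2.26.

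Directions turned as follows. With the covariate, D100 against control gave 0.47 for Ppard, -0.068 for Ppargc1a, 0.31 for Esrra, 0.77 for Rxra and -0.085 for Tfam, and D100 against D55 gave 0.14, -0.14, 0.017, 0.17 and -0.075. Without scaling factors Ppargc1a was at -0.42 and Tfam at -0.093 against control, and at -0.60 and -0.013 between the doses, while the median of all genes stood at -0.48 and -0.65. Ppargc1a, near 0 throughout, was at -0.0058 and -0.035 without the 10 most abundant genes, and between the doses at -0.043 under the stricter filter (5 CPM in 4 libraries), -0.053 in limma-voom, -0.056 without D55 B and E and -0.0044 without D100 F too. Leaving out 1 library moved it between -0.15 and 0.18, between -0.17 and 0.16, and between -0.021 and 0.062 in D100 against control, D55 against control and D100 against D55. For D55 against control limma-voom gave -0.0036 for Ppard, -0.19 for Esrra and 0.15 for Tfam, and Tfam was at 0.0316 without D55 B and E and at 0.0317 without D100 F too. On unscaled CPM the correlation of Ppargc1a with the share was -0.773. The cause was not tested. No ratio reversed. The number of all genes called between the doses ran from 0 (replicate block) to 7068 (limma-voom), and in D100 against control from 180 (without control 1) to 9594 (limma-voom). In D100 the libraries held 12 to 114 counts of Rxra or Esrra and 20 to 267 of Ppara or Ppard.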
